A study of Mus musculus with 4 samples.

Results

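The cells described here are 153 CD8 T cells from MC38 tumours under anti-PD-1 that carried RNA of Xcl1, Ifng and Nr4a1 at the same time. They are called triggered cells below. They were chosen by measured values: at least 1 UMI (a counted RNA molecule) each of Cd8a, Cd8b1, Xcl1, Ifng and Nr4a1, and none of Cd4, Foxp3 and Mki67. Cells without a Mki67 UMI are called non-cycling below, which does not exclude every dividing cell. They made up 3.03% (exact 95% interval 2.57 to 3.54) of the 5056 non-cycling CD8 cells of the anti-PD-1 library, which holds 12562 of the 13213 cells of the series. The cells they are set against, called untriggered, were 1073 non-cycling CD8 cells of the same library without a UMI of Xcl1, Ifng or Nr4a1. Between these extremes lay 2505 cells with 1 of the 3 genes and 1309 cells with 2, and a further 16 cells with all 3 also carried Foxp3. Foxp3 was not excluded from the untriggered cells, and 56 of them carried it. The names triggered and untriggered stand for the rule alone, since contact with antigen was not measured.

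MC38 is a mouse colon carcinoma line, here implanted orthotopically in C57BL/6 mice. All cells compared come from the arm given anti-PD-1 3 times per week, 5 times in total, an antibody that blocks the PD-1 inhibitory receptor. Tumours were taken 2 weeks after treatment began, and 5 tumours were pooled into 1 droplet library. The other arms received vehicle, ATT-I (Atractylenolide I, a plant sesquiterpene lactone) at 50 mg/kg daily, or ATT-I with anti-PD-1. Because the 5 tumours share 1 library, no replicate error exists for any comparison below, and no test was run. Intervals are exact 95% intervals that cover counting error only, and cells of the same library are not replicates.

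A CD8 T cell that meets its antigen signals through the T cell receptor, and within a short time transcribes immediate early genes such as the NR4A orphan nuclear receptors and the EGR zinc finger factors. Cytokine and chemokine genes follow, and many of their transcripts are short-lived, so that they mark cells seen soon after contact. Xcl1 encodes a chemokine that attracts cross-presenting dendritic cells. Ifng encodes interferon-gamma, which acts on tumour and myeloid cells, and Nr4a1 encodes the orphan receptor Nur77, a widely used reporter of antigen receptor signalling. In tumours, prolonged signalling of this kind accompanies T cell exhaustion, and PD-1 dampens it.

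Depth differed between the groups. Triggered cells held a median of 8302 UMIs (range 3498 to 25803), against 5958 UMIs (range 1405 to 51494) in untriggered cells. A rule that asks for several genes at once favours deep cells. The comparison of triggered with untriggered cells was therefore repeated with every cell thinned to 3000 UMIs, which leaves out 0 triggered and 52 untriggered cells. Comparisons within the triggered cells and among cycling cells were not thinned, and of cells grouped by the rule genes they carry only shares of cells were, not levels. At a depth of 3000 UMIs, 33 of 4934 non-cycling CD8 cells (0.669%) still met the whole rule. The other libraries held too few such cells to compare: the rule was met by 5 of 11 non-cycling CD8 cells under ATT-I with anti-PD-1, by 1 of 63 under ATT-I and by 1 of 4 under vehicle. Of the cell barcodes, 1 occurred in 2 libraries.

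Membership often hung on a single molecule. Of the 153 cells, 117 (76.5%) had exactly 1 UMI of Nr4a1, and 137 (89.5%) had exactly 1 UMI of at least 1 of the 3 genes. Just inside the rule, 17 cells had 1 UMI of each gene, and 16 cells had 2 or more UMIs of each. The cells just outside it were the 1309 with 2 of the 3 genes. Their levels were 5.61 Xcl1, 4.59 Ifng and 0.345 Nr4a1 UMIs per 10000 UMIs, against 15.4, 11.0 and 1.45 UMIs per 10000 within it, as the rule dictates. A level is here the summed UMIs of a gene per 10000 summed UMIs of the group.

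Free RNA in droplets can add single UMIs to a cell, and its amount was not estimated here. Regulatory T cells, which as a rule make little Xcl1 or interferon-gamma, had an Xcl1 UMI in 19.8% and an Ifng UMI in 20.9% of 182 cells, at a median of 5557 UMIs. Among all non-cycling CD8 cells these shares were 38.0% and 62.6%, at a median of 6905.5 UMIs. Thinned to 3000 UMIs, the shares were 24.7% Xcl1 and 42.7% Ifng in CD8 cells, against 13.5% for each gene in regulatory T cells. Nr4a1 was found in 10.8% of CD8 cells and 25.3% of regulatory T cells, a type that expresses it as well. In 420 thinned CD4 conventional cells the shares were 15.5% Xcl1 and 30.2% Ifng. The shares of Xcl1 and Ifng in CD8 cells were thus above those in regulatory T cells, while the share of Nr4a1 was below. What free RNA adds to any of these shares was not tested.

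The 3 genes of the rule went together only in part. Each was read in cells chosen by the other 2, so that its own value had no part in the choice. Nr4a1 reached 0.216 UMIs per 10000 in the 1139 Foxp3-negative cells with Xcl1 and Ifng, against 0.171 in the 1172 cells with neither, a log2 ratio of 0.34 (0.02 to 0.67). In thinned cells, 6.29% and 4.57% had an Nr4a1 UMI. Xcl1 stood at 7.14 UMIs per 10000 in 337 cells with Ifng and Nr4a1, against 2.57 in 1718 cells with neither, a log2 ratio of 1.47 (1.39 to 1.55). Its share of thinned cells was nearly level, at 27.6% and 26.1%. Ifng stood at 8.01 UMIs per 10000 in 220 cells with Xcl1 and Nr4a1, against 3.02 in 2834 cells with neither, a log2 ratio of 1.41 (1.32 to 1.49), with 48.4% and 42.5% of thinned cells. Levels of Xcl1 and Ifng therefore differed more than the share of cells that carried them. These levels rested on few cells: 1 cell held 600 of the 1554 Ifng UMIs, and 5 cells held 44.3% of the 2180 Xcl1 UMIs. The intervals do not cover this.

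Of 7 CD8 T cell markers, of which the rule itself requires Cd8a and Cd8b1, all were found in both groups, with a summed level of 85.7 UMIs per 10000 (84.2 to 87.3) in triggered cells and 92.1 (91.4 to 92.8) in untriggered cells. Markers of B cells summed to 0.0282 and 0.0522 UMIs per 10000, of monocytes or macrophages to 0.268 and 0.475, and of dendritic cells to 0.416 and 0.449, triggered cells first in each pair. Of the 2 B cell markers, Cd79a was at 0 in triggered cells. Of the 5 dendritic markers, 3 were at 0 in triggered cells and 2 in untriggered cells. Of NK markers, which activated CD8 cells share in part, the summed level was 7.71 in triggered cells and 6.87 in untriggered cells. Of the 4 cycling markers, Mki67 was at 0 by the rule. A UMI of Top2a, Birc5 or Cdk1 was still found in 52.9% of triggered and 49.9% of untriggered cells. Their summed levels were 1.14 and 1.39 UMIs per 10000, so non-cycling stands for the lack of a Mki67 UMI alone. No doublet caller was run. No triggered cell and 1 untriggered cell lay above the 99th percentile of UMIs of the library.

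Across the transcriptome the triggered cells stood apart by a short list of genes, headed by Ccl1, Egr3, Nr4a3 and Tnfsf14. Of 6345 genes found in at least 10% of either group, 48 (0.757%) were at least 2-fold higher in triggered cells and 35 (0.552%) at least 2-fold lower, or 1.31% either way. Of these, 36 (0.567%) and 18 (0.284%) also passed 2-fold in the same direction after thinning. Of the 48, 42 passed the filter only through the triggered cells and 6 in both groups, and of the 35, 21 passed only through the untriggered cells and 14 in both. A gene that passes through 1 group had to be more frequent there. This holds for Ccl1, Egr3, Nr4a3 and Tnfsf14, all of which passed only through the triggered cells. The median log2 ratio of all genes was 0.02. The 6 that passed in both groups were Ccl4, Ccl3, Crtam, Rgs16, Nrgn and Gch1, named after their values were seen. The percentages are the background for the gene lists below.

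**Figure D1:**
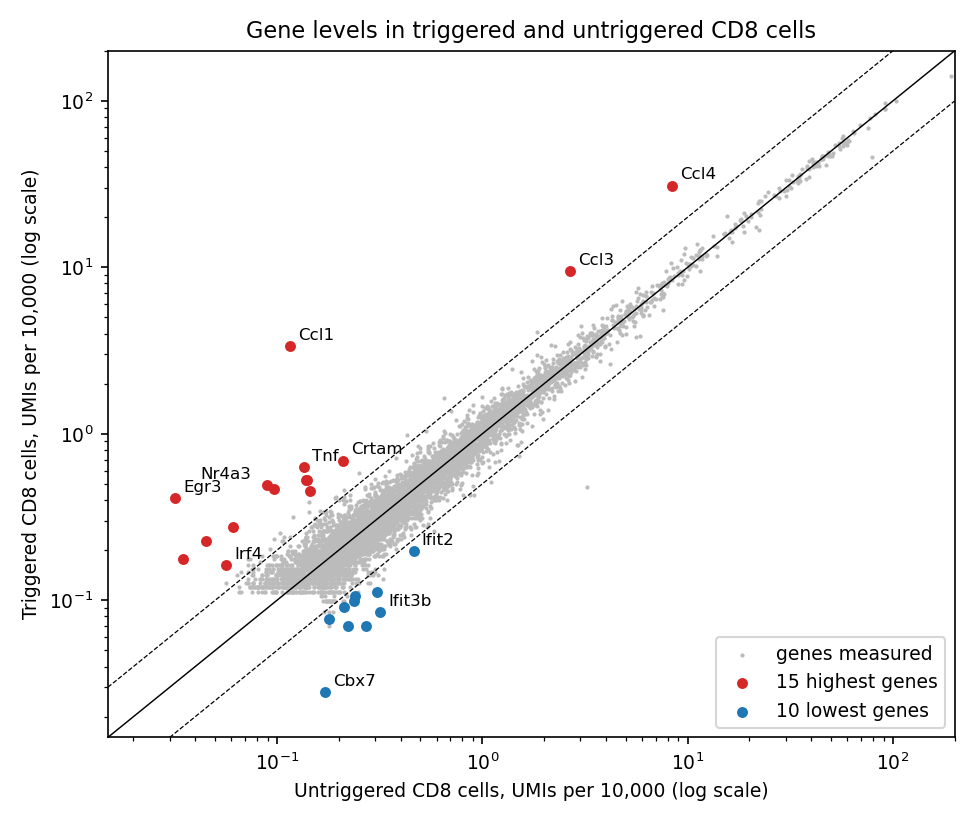
Level of each of 6345 genes in triggered CD8 cells (vertical axis) and untriggered CD8 cells (horizontal axis), in UMIs per 10000 on log scales, with equality (solid line) and 2-fold differences (dashed lines). Ccl1, Egr3 and Nr4a3 lie far above the upper dashed line, and the 10 lowest genes (blue) sit at low levels in both groups.

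Chemokines were the group with the largest ratios. Of 5 chemokine genes that passed the filter, Xcl1 aside, 4 were at least 2-fold higher, with a median log2 ratio of 1.83. Ccl3 and Ccl4 passed the filter in both groups, Ccl1 and Cxcl10 only through the triggered cells. Ccl3 and Ccl4 encode inflammatory chemokines that draw in other T cells and myeloid cells. Ccl4 reached 31.0 UMIs per 10000 (30.1 to 31.9) in triggered cells and 8.35 (8.14 to 8.57) in untriggered cells, a log2 ratio of 1.89 (1.83 to 1.95). Ccl3 reached 9.54 (9.03 to 10.1) and 2.68 (2.56 to 2.81) in the same order, a log2 ratio of 1.83 (1.73 to 1.93). Untriggered cells carried these chemokines too: 79.1% of triggered and 73.4% of untriggered cells had a Ccl4 UMI, and 60.1% and 42.5% a Ccl3 UMI. The mean amount differed more, with 36.3 Ccl4 UMIs per positive triggered cell and 7.31 per positive untriggered cell, not adjusted for depth. Few cells weigh on this mean: the 5 richest triggered cells held 32.8% of the Ccl4 UMIs. The median was 5 Ccl4 UMIs in triggered cells and 2 in untriggered cells. Ccl1, a ligand of CCR8, showed the highest log2 ratio of the genes that passed the filter, 4.86 (4.51 to 5.22), from 476 UMIs in 20 triggered cells and 80 UMIs in 70 untriggered cells.

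The remaining chemokines behaved differently. Cxcl10, an interferon-induced ligand of CXCR3, stood at 0.980 UMIs per 10000 in triggered cells and 0.432 in untriggered cells, a log2 ratio of 1.18 that dropped to 0.93 after thinning. The 5 triggered cells richest in Cxcl10 held 88.5% of its UMIs, and without the richest 3% of cells on each side its log2 ratio was -0.01. Ccl5, a chemokine that memory and effector CD8 cells store as ready message, was lower: 46.3 UMIs per 10000 (45.2 to 47.4) in triggered cells and 79.2 (78.6 to 79.9) in untriggered cells, a log2 ratio of -0.78. It was found in 100% of triggered and 99.6% of untriggered cells.

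Cytokines and TNF-family ligands followed. Of 10 that passed the filter, Ifng aside, 5 were at least 2-fold higher and none lower, with a median log2 ratio of 0.84. All 5 passed the filter only through the triggered cells, so that the filter favoured this count, and at a filter of 25% of cells the median was -0.048. Tnfsf14 (LIGHT, a ligand of HVEM and the lymphotoxin beta receptor) had a log2 ratio of 2.34 (1.47 to 3.21), found in 12.4% of triggered and 2.24% of untriggered cells. Tnf, the prototype of the family, had 0.628 UMIs per 10000 in triggered cells and 0.135 in untriggered cells, a log2 ratio of 2.22 (1.78 to 2.65). Tnfsf11 (RANKL), Lta (lymphotoxin alpha) and Tnfsf8 (CD30 ligand) had log2 ratios of 1.30, 1.25 and 1.10. After thinning, Tnfsf11 was at 0.93 and the other 4 stayed above 1. Fasl, Ltb and Tnfsf10 had log2 ratios of -0.09, -0.01 and -0.12.

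Il2, the T cell growth factor, and Csf2, the myeloid growth factor GM-CSF, did not pass the filter, since 5.23% and 8.50% of triggered cells carried them, against 2.33% of untriggered cells for each. Il2 summed to 228 UMIs in triggered cells, of which 152 came from 1 cell and 65 from another. Untriggered cells summed to 26 Il2 UMIs, and no untriggered cell had more than 2. For Csf2, 51 of the 64 UMIs of triggered cells came from the cell with 152 Il2 UMIs. These sums therefore describe a few cells.

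Among induced transcription factors Egr3 and Nr4a3 had the highest ratios of those that passed the filter. Of 18 factors that passed the filter, 3 were at least 2-fold higher, 16 had a log2 ratio above 0, and the median was 0.55. The 3 passed the filter only through the triggered cells, which favoured their count. Egr3, which restrains T cell activation together with Egr2, had a log2 ratio of 3.68 (2.95 to 4.46): 18 of 153 triggered cells (11.8%) carried it, against 17 of 1073 untriggered cells (1.58%). Nr4a3, the paralog of Nr4a1, was found in 23.5% of triggered and 4.85% of untriggered cells, a log2 ratio of 2.46 (1.94 to 2.97). Irf4, a factor whose amount tracks receptor signal strength, had a log2 ratio of 1.52 (0.71 to 2.30). Nr4a2 (0.70), Egr1 (0.73), Myc (0.92) and the NF-kappaB subunit Rel (0.92) were higher by less than 2-fold, with intervals above 0. Egr2 did not pass the filter.

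The promoters of the rule genes and of Nr4a3 are shown because Nr4a3 was among the highest genes in cells chosen by its paralog, and the promoters of both share a feature. Each line gives the 250 bases before the annotated start, 5′ to 3′ on the strand of the gene, from RefSeq, build GRCm38.p6. Capitals mark matches to TGACG, the core of the cyclic AMP response element, or to the AP-1 motif TGANTCA, on either strand. The regions are chr15:101266596-101266845 (+) for Nr4a1, chr4:48045055-48045304 (+) for Nr4a3, chr10:118440796-118441045 (+) for Ifng and chr1:164935523-164935772 (-) for Xcl1.
Nr4a1: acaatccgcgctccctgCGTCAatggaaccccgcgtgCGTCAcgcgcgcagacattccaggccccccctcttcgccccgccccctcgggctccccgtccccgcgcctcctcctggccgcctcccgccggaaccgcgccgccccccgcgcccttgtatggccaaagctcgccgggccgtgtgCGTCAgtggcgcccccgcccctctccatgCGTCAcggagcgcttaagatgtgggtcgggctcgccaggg
Nr4a3: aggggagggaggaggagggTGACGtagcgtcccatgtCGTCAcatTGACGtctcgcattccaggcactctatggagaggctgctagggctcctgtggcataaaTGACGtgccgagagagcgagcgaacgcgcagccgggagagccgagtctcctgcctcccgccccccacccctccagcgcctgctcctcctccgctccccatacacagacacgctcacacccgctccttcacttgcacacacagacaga
Ifng: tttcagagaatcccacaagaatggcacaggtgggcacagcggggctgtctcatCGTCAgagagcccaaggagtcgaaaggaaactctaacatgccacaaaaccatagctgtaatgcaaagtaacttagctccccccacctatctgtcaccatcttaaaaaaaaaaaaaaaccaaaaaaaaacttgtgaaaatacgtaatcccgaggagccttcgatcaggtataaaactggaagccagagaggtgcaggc
Xcl1: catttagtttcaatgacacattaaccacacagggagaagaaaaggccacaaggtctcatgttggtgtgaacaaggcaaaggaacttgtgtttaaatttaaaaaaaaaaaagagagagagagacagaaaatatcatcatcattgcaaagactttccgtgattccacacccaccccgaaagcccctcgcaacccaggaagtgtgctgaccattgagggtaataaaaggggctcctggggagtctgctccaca

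Nr4a1 and Nr4a3 each held 4 TGACG matches, Ifng 1 and Xcl1 none, and none of the 4 held TGANTCA. Of all 32851 promoter windows of 300 bases (250 before and 50 after the start), 20.8% held at least 1 TGACG and 7.81% at least 1 TGANTCA. How many windows held 4 TGACG matches was not counted. Of 18 genes looked up (the 3 rule genes and the 15 highest genes), 14 had a promoter in the table. Gpm6b held 1 full TGACGTCA element, which 1.79% of windows hold and which contains TGACG on both strands, and Tnfsf14 held 1 TGANTCA. Rgcc held 1 TGACG, as did 1 promoter of Slc17a6, while another of its promoters held none. Ccl1, Ccl3, Tnf, Irf4, Serpine2 and Igfbp7 held neither TGACG nor TGANTCA. A match describes letters, not a bound site, and the lack of a match says only that the letters are not in this window.

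Classical AP-1 and immediate early genes differed little. Of 11 that passed the filter, none was 2-fold different, and the median log2 ratio was 0.27. Junb stood at 12.0 UMIs per 10000 in triggered cells and 9.57 in untriggered cells, Fos at 1.74 and 1.42, and Jun at 5.09 and 6.05.

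Feedback regulators of receptor signalling were mixed. Of 29, 3 were at least 2-fold higher, of which Rgs16 passed the filter in both groups and the others only through the triggered cells. They were Nfkbid, an atypical nuclear IkappaB (log2 ratio 1.40), Dusp4, a MAP kinase phosphatase (1.24), and Rgs16, a regulator of G protein signalling (1.16). Rgs16 was found in 64.7% of triggered and 42.9% of untriggered cells. Socs2, a suppressor of cytokine receptor signalling, was lower, at 0.127 UMIs per 10000 in triggered cells and 0.278 in untriggered cells. Of the 16 costimulatory and activation receptors, Crtam, an adhesion receptor that appears on CD8 and NK cells after activation, was the 1 at least 2-fold higher (log2 ratio 1.72, 1.33 to 2.10). Cd69, the usual early activation marker, had 2.17 UMIs per 10000 in triggered cells and 2.55 in untriggered cells. Tnfrsf9 (4-1BB) had 3.90 and 2.92, and the IL-2 receptor chain Il2ra 0.317 and 0.178, in the same order.

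The other genes among the 15 highest were Gpm6b, Serpine2, Igfbp7, Kdm6b, Rgcc and Slc17a6. All of them passed the filter only through the triggered cells, so that they had to be more frequent there. Kdm6b encodes a histone H3 lysine 27 demethylase, and 26.8% of triggered and 8.11% of untriggered cells carried it (log2 ratio 1.93, 1.47 to 2.38). Rgcc, a regulator of cell cycle linked to complement response, had a log2 ratio of 1.91. Gpm6b (2.33), a membrane glycoprotein of the proteolipid family, was found in 13.7% of triggered and 2.24% of untriggered cells. Serpine2 (2.26), a secreted protease inhibitor, and Igfbp7 (2.18), a secreted binding protein, rested on few cells: the 5 richest held 74.2% of the 66 Serpine2 UMIs and 66.7% of the 39 Igfbp7 UMIs. Slc17a6 (1.64), a vesicular glutamate transporter, was found in 17.0% of triggered and 4.85% of untriggered cells.

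**Figure D2:**
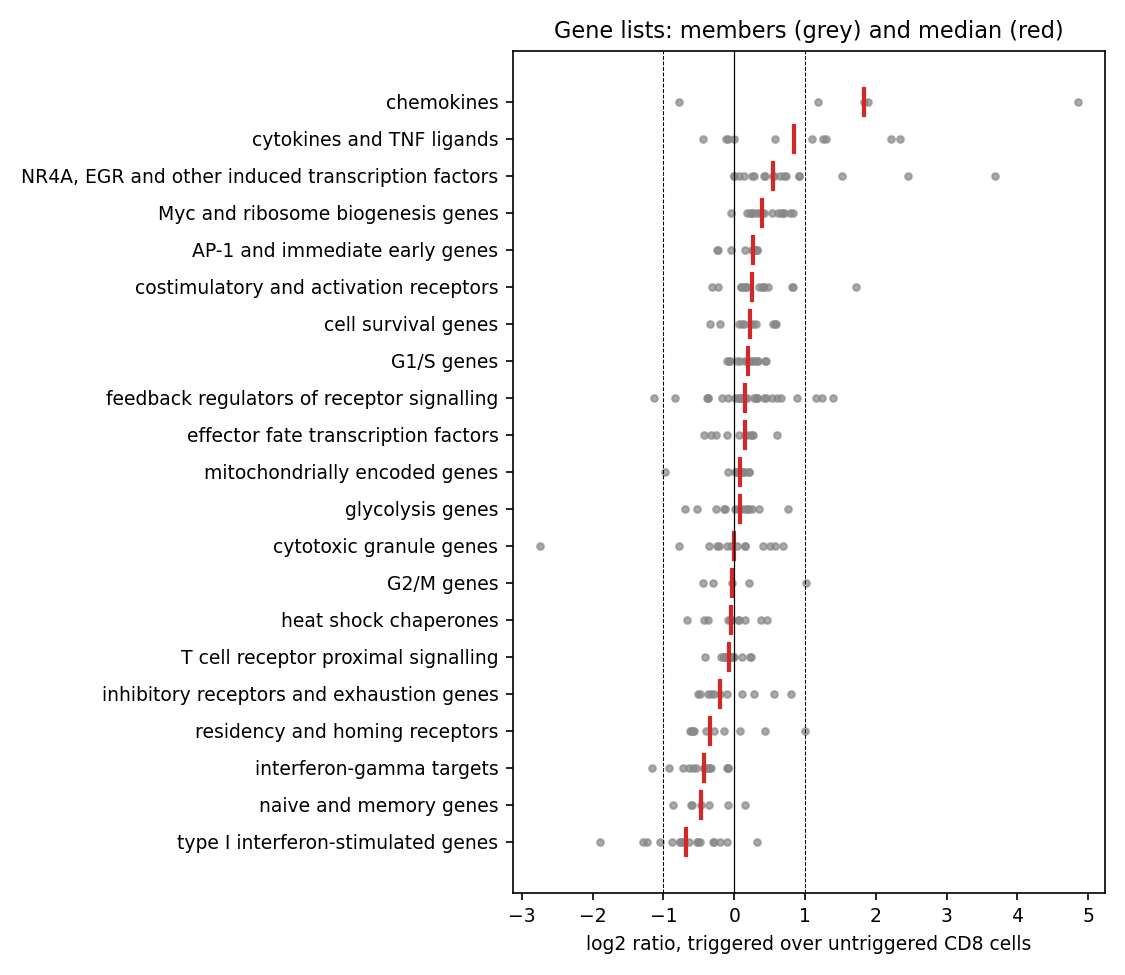
Log2 ratio of triggered over untriggered CD8 cells for every gene that passed the filter in each gene list (grey points) with the list's median (red bar); dashed lines mark 2-fold. Chemokines have the highest median, 1.83, and type I interferon-stimulated genes the lowest, -0.68.

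Interferon-stimulated genes lay on the other side. Of 18 type I interferon-stimulated genes, 17 had a log2 ratio below 0, and the median was -0.68. Ifit3b, Ifit1bl1, Ifit2 and Ifit3, which encode tetratricopeptide proteins of the antiviral response, were at least 2-fold lower, at -1.90, -1.29, -1.23 and -1.04. Ifit3b and Ifit1bl1 passed the filter only through the untriggered cells. After thinning, Ifit3b and Ifit2 stayed past 2-fold, while Ifit1bl1 was at -0.86 and Ifit3 at -0.75. Ifit3 stood at 0.733 UMIs per 10000 in triggered cells and 1.51 in untriggered cells, and Irf7, the factor that amplifies the type I response, at 0.677 and 1.16. Ifih1, an RNA sensor, was the exception at 0.32 (-0.24 to 0.85). All 15 interferon-gamma targets that passed the filter were below 0, with a median of -0.42, although the triggered cells were chosen for Ifng RNA. Gbp2, a guanylate-binding protein, had a log2 ratio of -0.92 (-1.42 to -0.45). Iigp1, an immunity-related GTPase, had -1.15, which was -0.79 after thinning, and Irf1 had -0.09 (-0.37 to 0.18).

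The 10 lowest genes that passed 2-fold both as deposited and after thinning were Cbx7, Igkc, Ifit3b, Pik3ip1, Izumo1r, Map3k2, Ifit2, Art2b, Letmd1 and Khnyn. All but Ifit2 passed the filter only through the untriggered cells, so that the filter fixed their lower share in triggered cells. The log2 ratios of the 10 genes lay between -2.60 (Cbx7, a Polycomb subunit) and -1.19 (Khnyn). Cbx7 summed to 4 UMIs in triggered cells and 118 in untriggered cells. Pik3ip1, an inhibitor of PI3 kinase that resting T cells express, was found in 6.54% of triggered and 10.9% of untriggered cells. Izumo1r, the folate receptor 4 of regulatory and anergic T cells, was found in 9.15% and 13.9%. Igkc is an immunoglobulin light chain that T cells do not make, at 0.0705 UMIs per 10000 in triggered cells and 0.271 in untriggered cells. The B cell marker Cd79b had 4 UMIs in triggered and 35 in untriggered cells and Cd79a 0 and 1, and the intervals of their summed levels overlap (0.00769 to 0.0722 and 0.0366 to 0.0722). Their part in this result was not tested.

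Exhaustion, memory and killing genes set the groups apart far less. Of 11 inhibitory receptors and exhaustion genes none passed 2-fold, and the median log2 ratio was -0.20. Pdcd1, which encodes PD-1, stood at 3.76 UMIs per 10000 (3.45 to 4.09) in triggered cells and 3.10 (2.97 to 3.23) in untriggered cells. Lag3 stood at 2.84 and 2.64, Havcr2 (TIM-3) at 0.797 and 0.542, and Tox, the driver of the exhausted state, at 1.47 and 1.85. Of 7 naive and memory genes 6 were below 0 (median -0.47), none past 2-fold. S1pr1, the receptor for exit from tissue, had -0.87 and Il7r -0.60. Tcf7, the factor of stem-like cells, had 0.16 (-0.31 to 0.60) as deposited and -0.65 after thinning, a change of sign.

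Of 14 cytotoxic granule genes none was 2-fold higher. Gzmb stood at 11.8 UMIs per 10000 (11.2 to 12.3) in triggered cells and 13.9 (13.6 to 14.1) in untriggered cells, and Prf1 at 4.04 (3.72 to 4.39) and 3.06 (2.93 to 3.19). The log2 ratio of -2.75 for Gzmc came from a single untriggered cell with 1923 of the group's 2220 UMIs. Without that cell, which is the one above the 99th percentile of UMIs, the log2 ratio of Gzmc was 0.15. Cx3cr1, the fractalkine receptor of effector cells, was the 1 of 10 residency and homing receptors past 2-fold, at 26.8% of triggered and 8.67% of untriggered cells (log2 ratio 1.01). It passed the filter only through the triggered cells. Ly6c2 had 3.84 UMIs per 10000 in triggered cells and 5.86 in untriggered cells, and Cxcr3 0.797 and 1.23.

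Growth genes were shifted by a small amount. Of 17 Myc and ribosome biogenesis genes 16 were above 0, with a median log2 ratio of 0.39 and none past 2-fold. Srm, a polyamine synthase, had 0.83 (0.43 to 1.22), and Gnl3, a nucleolar GTPase, had 0.79 (0.48 to 1.10). The 88 ribosomal protein genes had a median of -0.01, the 16 glycolysis genes 0.08, the 17 genes of receptor-proximal signalling -0.07, the 12 heat shock chaperones -0.04 and the 13 mitochondrially encoded genes 0.09, none of them with a gene past 2-fold. The 15 G1/S genes had a median of 0.19. Of 5 G2/M genes 1 passed 2-fold, the cyclin Ccnb2 at 1.01, which was 0.47 after thinning.

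Output was very uneven among the triggered cells. The median triggered cell held 2 Xcl1, 3 Ifng, 1 Nr4a1, 5 Ccl4 and 1 Ccl3 UMIs and no Ccl1 or Tnf, while the highest held 304 Xcl1, 600 Ifng, 6 Nr4a1, 381 Ccl4, 165 Ccl3, 135 Ccl1 and 25 Tnf UMIs. The 5 richest cells of each gene held 44.3% of the Xcl1 UMIs, 53.3% of the Ifng UMIs, 45.9% of the Ccl3 UMIs, 32.8% of the Ccl4 UMIs, 85.7% of the Ccl1 UMIs and 70.8% of the Tnf UMIs. For comparison, the 5 cells richest in Cd8a held 8.55% of its UMIs and those richest in Nr4a1 10.2%. Nr4a1 RNA was thus spread evenly, as a rule set at 1 UMI allows, and the secreted products were not.

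**Figure D3:**
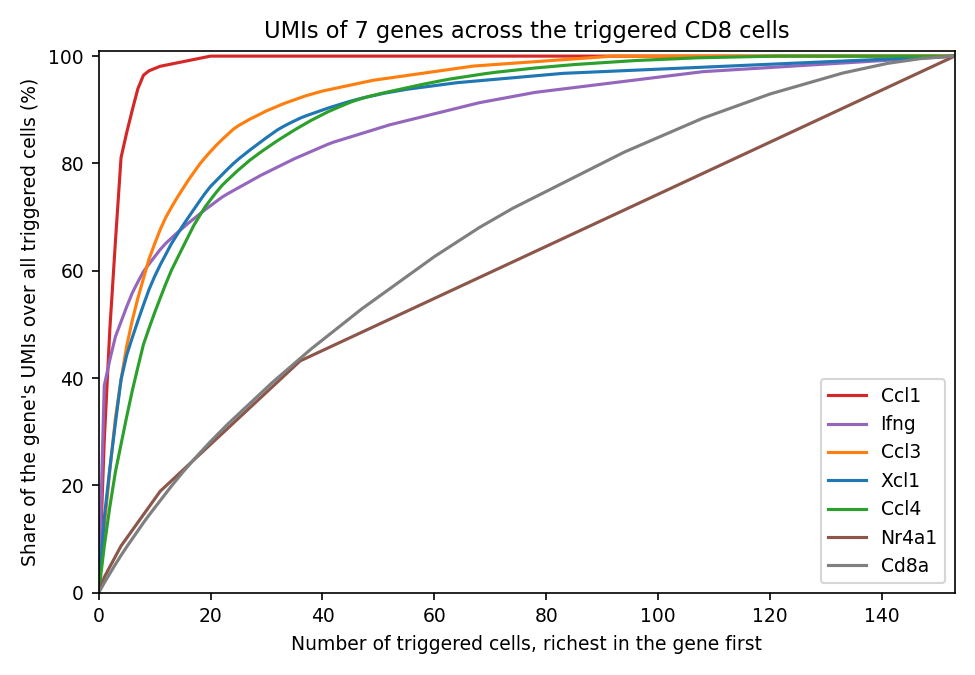
Share of a gene's UMIs (vertical axis, percent) held by the triggered cells, ordered from the richest in that gene (horizontal axis, number of cells), for 7 genes. The curves of Ccl1 and Ifng climb steeply, with 85.7% and 53.3% in the first 5 cells, whereas Cd8a climbs slowly.

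The richest cells of the output genes overlapped in part, and whether by more than chance was not tested. The 13 cells that formed the top 5 of Xcl1, Ifng, Ccl1, Ccl3 and Ccl4 included 5 found in the top 5 of exactly 2 genes, 2 of exactly 3 and 1 of 4, and none of all 5. The cell with 600 Ifng UMIs also held 152 Il2, 51 Csf2, 99 Xcl1, 144 Ccl3, 192 Ccl4 and 78 Ccl1 UMIs among its 13310, but no Gzmb, Tnf or Egr3. The cell with the most output per depth, at 5054 UMIs in all, held 304 Xcl1, 324 Ccl4, 75 Ifng and 65 Il2 UMIs and neither Ccl1 nor Gzmb. The cell with 135 Ccl1 UMIs held 67 Ifng, 36 Xcl1 and 8 Gzmb UMIs and no Il2.

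The summed UMIs of Xcl1, Ifng, Ccl1, Ccl3 and Ccl4 gave a measure of output per cell. The median was 20.7 per 10000 in triggered cells (2.45 to 1462) and 3.93 in untriggered cells (0 to 238), whose sum lacks Xcl1 and Ifng by the rule. At 100 or more per 10000 lay 25 triggered cells (16.3%) and 12 untriggered cells (1.12%), and these 25 held 72.2% of the 9952 UMIs. With the 3 chemokines outside the rule alone (Ccl1, Ccl3 and Ccl4), 18 triggered cells (11.8%, 7.12 to 17.95) reached 100 per 10000. The share was 5.73% (4.53 to 7.13) in cells with 2 rule genes, 2.83% (2.22 to 3.56) with 1 and 1.12% (0.579 to 1.95) with none. The median chemokine sum moved less, at 7.47 per 10000 with all 3 genes and 3.93 with none.

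The 25 high-output cells held 68 of the 89 Tnf UMIs, 49 of the 58 Egr3 UMIs and 223 of the 228 Il2 UMIs of the triggered cells. These genes had no part in the choice of the 25, and no test was run. Tnf stood at 3.45 UMIs per 10000 in the 25, 0.172 in the other 128 triggered cells and 0.135 in untriggered cells. Egr3 stood at 2.49, 0.0737 and 0.0319 in the same order, with 12 of the 25 and 6 of the 128 positive. Nr4a3 stood at 2.03, 0.246 and 0.0899, Crtam at 2.44, 0.410 and 0.210, and Nfkbid at 1.27, 0.164 and 0.120. Il2 stood at 11.3, 0.0410 and 0.0377, from 3 positive cells of the 25. High-output cells were not deeper, with a median of 7257 UMIs against 8942.5 in the other 128.

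The other 128 triggered cells kept part of the pattern. Compared with all 1073 untriggered cells, the 12 of high output included, their log2 ratio was 1.45 (0.77 to 2.10) for Nr4a3, 1.44 (0.90 to 1.96) for Kdm6b, 1.23 (0.66 to 1.77) for Dusp4, 1.38 (0.49 to 2.22) for Irf4 and 2.57 (2.11 to 3.03) for Ccl1. The log2 ratio was 0.15 (0.06 to 0.24) for Ccl4, 0.35 (-0.41 to 1.05) for Tnf and -0.41 (-0.61 to -0.22) for Ccl3. Since Ccl1, Ccl3 and Ccl4 set the cut, their values here are low by construction. Serpine2 went the other way, with 66 UMIs in 16 of the 128 and 0 UMIs in the 25, and so did Cxcl10, at 0.254 UMIs per 10000 in the 25 and 1.10 in the 128. Gzmb differed little among triggered cells, at 11.2 in the 25 and 11.8 in the 128, as did Pdcd1 at 3.66 and 3.78. Tcf7 was found in 1 of the 25 and 35 of the 128 cells, and Havcr2 in 14 and 36.

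**Figure D4:**
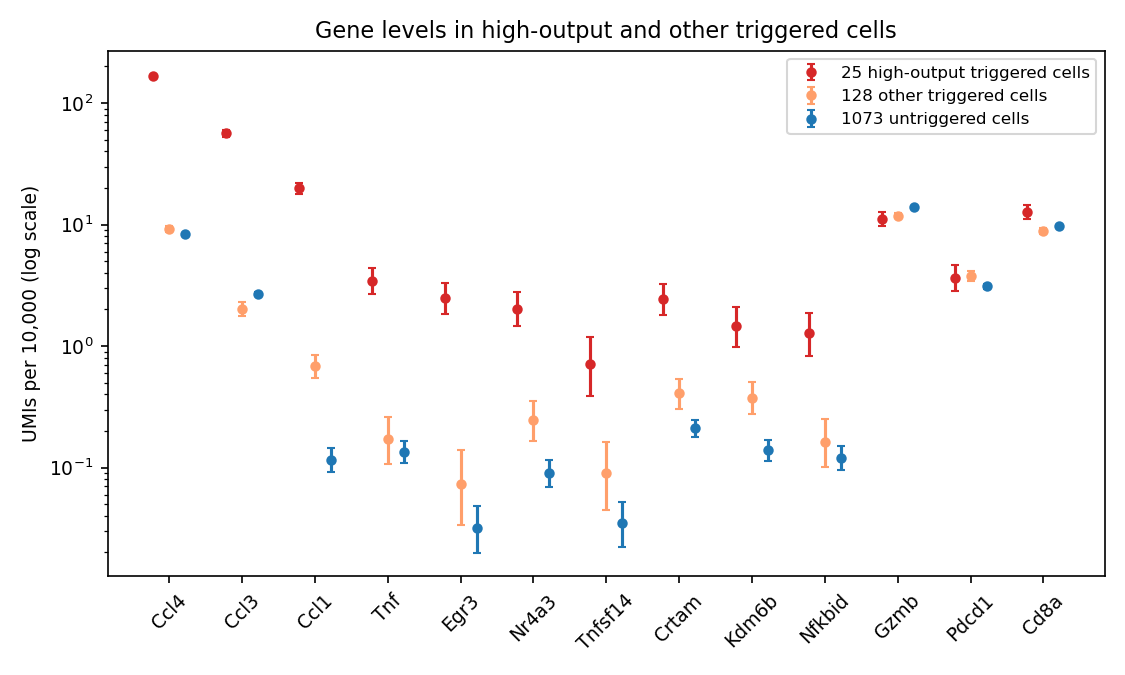
Level in UMIs per 10000 (log scale) of 13 genes in the 25 high-output triggered cells (red), the other 128 triggered cells (orange) and the 1073 untriggered cells (blue); bars are exact 95% intervals of counting error. Tnf and Egr3 separate the red points from both others, while Gzmb, Pdcd1 and Cd8a lie close together.

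Triggered cells with Tcf7 RNA, the mark of stem-like cells, looked different from those without. The 36 cells with a Tcf7 UMI (median 10291.5 UMIs) had 5.67 Gzmb UMIs per 10000, against 14.0 in the 117 without (median 8021 UMIs). Prf1 stood at 2.21 and 4.72, Havcr2 at 0.104 and 1.05, Ccl4 at 10.5 and 38.6, and Rgs16 at 1.93 and 4.93, cells with Tcf7 first. Nr4a1 was nearly equal at 1.38 and 1.48, and Ly6c2 was higher with Tcf7, at 5.72 against 3.14. Few cells weigh on the levels of Ccl4 and Gzmb. The 25 high-output cells, of which 1 carried Tcf7, held 3259 of the 4390 Ccl4 UMIs of the triggered cells. A single cell held 391 of the 1449 Gzmb UMIs of the cells without Tcf7. The 36 cells with 2 or more Nr4a1 UMIs had 0.990 Egr3 UMIs per 10000, against 0.209 in the 117 with 1, and 1.43 against 0.436 Crtam UMIs. Their Pdcd1 was 3.49 against 3.85. Few cells weigh on Egr3 as well: of its 36 UMIs in these cells, 1 cell held 10 and another 8.

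The levels of some of the highest genes ran in steps with the number of rule genes in a cell. These genes were picked by cells with all 3 against cells with none, so only the values between are free. With 0, 1, 2 and 3 of Xcl1, Ifng and Nr4a1 found, Ccl4 stood at 8.35, 13.0, 18.5 and 31.0 UMIs per 10000 and Ccl3 at 2.68, 4.09, 6.22 and 9.54. Egr3 stood at 0.0319, 0.0512, 0.167 and 0.409, and Nr4a3 at 0.0899, 0.128, 0.169 and 0.494. The share of thinned cells with a Ccl4 UMI did not keep this order, at 57.5%, 64.8%, 68.5% and 64.1%. For Egr3 the thinned shares were 1.18%, 1.23%, 3.01% and 5.88%. Ifit3b ran the other way, at 0.316, 0.248, 0.208 and 0.0846 UMIs per 10000. It was picked in the same way, among the lowest genes. Gzmb had no such order, with 13.9, 18.8, 14.96 and 11.8. Among the highest genes, Rgcc (0.141, 0.125, 0.156 and 0.529) and Serpine2 (0.0971, 0.194, 0.184 and 0.466) did not keep it either.

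**Figure D5:**
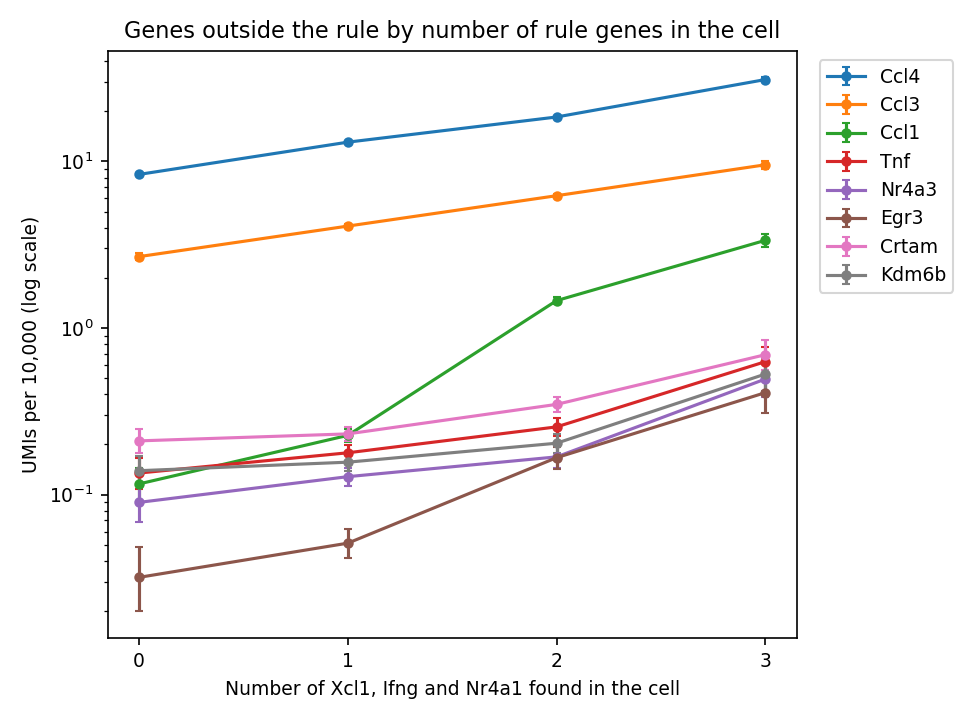
Level in UMIs per 10000 (log scale) of 8 genes outside the rule in non-cycling CD8 cells with 0, 1, 2 or all 3 of Xcl1, Ifng and Nr4a1 (horizontal axis); bars are exact 95% intervals of counting error. Ccl4 runs up to 31.0 and Egr3 to 0.409 in the cells with all 3.

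Levels also differed with which of the rule genes a cell carried. The 202 cells with Ifng and Nr4a1 but no Xcl1 had 27.4 Ccl4 and 9.56 Ccl3 UMIs per 10000, close to the 31.0 and 9.54 of the triggered cells. The 645 cells with Xcl1 alone had 6.48 Ccl4 and 2.05 Ccl3, below the 8.35 and 2.68 of untriggered cells. Crtam followed Xcl1 instead, at 0.428 in cells with Xcl1 alone, 0.170 in the 1761 cells with Ifng alone and 0.210 in untriggered cells. Kdm6b followed Nr4a1, at 0.527 in the 99 cells with Nr4a1 alone, against 0.139 in untriggered cells, and was 0.529 in triggered cells. Gzmb was highest with Ifng alone, at 22.2 UMIs per 10000.

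Cycling CD8 cells, with a Mki67 UMI, had no part in the rule and gave a second reading of the same contrast in the same library. There, 144 cells with all 3 genes were set against 408 with none. Of the 15 highest genes, 11 were at least 2-fold higher there too, against 0.853% of 7858 genes in that comparison, and all 15 were above 0. Egr3 had a log2 ratio of 2.75 (non-cycling 3.68), Ccl1 2.59 (4.86), Gpm6b 2.59 (2.33), Nr4a3 2.22 (2.46), Kdm6b 1.89 (1.93) and Crtam 1.88 (1.72). The 4 below 2-fold were Rgcc (0.57, -0.05 to 1.18), Slc17a6 (0.54, 0.01 to 1.07), Irf4 (0.24, -0.54 to 1.01) and Tnf (0.17, -0.55 to 0.87). Of the 10 lowest genes, 4 were at least 2-fold lower (0.674% of all genes), and all 10 were below 0, with Ifit3b at -2.08. The intervals of Cbx7 (-1.02 to 0.39), Letmd1 (-1.32 to 0.14) and Khnyn (-1.24 to 0.10) include 0. The shares of all genes above and below 0 in that comparison were not counted. Depth differed more here, with a median of 15980.5 UMIs in cells with all 3 genes and 8643 in cells with none.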

How the data were processed

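Droplet single-cell RNA libraries, 1 per arm, were read from 1 table. Per the submitters' processing notes, Cell Ranger, Seurat and build mm10 were used; versions and cell filters are not given in the sources used here. The authors deposited natural log values: each is ln of (1 + UMIs per 10000 in the cell), less a library constant (0.249 for anti-PD-1), with negatives set to 0. With that constant 100% of non-zero values came out within 0.02 of a whole UMI, and these UMIs were used. The subtraction set 1 UMI to 0 in 37 anti-PD-1 cells, among them 0 triggered and 1 untriggered cell.

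Levels are summed UMIs per 10000 with exact Poisson intervals, ratios have exact conditional binomial intervals and shares Clopper-Pearson intervals, all at 95%. Genes needed a UMI in at least 10% of either group, and the threshold was 2-fold. A group without UMIs takes a floor of 3 UMIs. Thinning drew 3000 UMIs per cell without replacement, once. The median cell of the anti-PD-1 library held 7146.5 UMIs.

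Named genes are the rule genes, the 15 highest and 10 lowest past 2-fold as deposited and thinned (T cell receptor variable genes aside), and members of the gene lists past 2-fold, with examples. Genes outside this rule, such as Il2 and Csf2, were named after their values were seen. The members and lists were chosen with earlier results of these data known. Statistics used scipy 1.17.1 and numpy 2.4.6 under Python 3.11.15, with tables in pandas 2.3.3 and plots in matplotlib 3.10.9, and the ratio and thinning steps were tested on simulated data.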

Additional observations from a re-analysis of the deposited data

How the results depend on the processing

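The 48 genes at least 2-fold higher and 35 lower stayed within 1.5 times these counts when UMIs per 10000 were averaged over cells, when cells were matched in depth, and without Foxp3, the deepest cells or the cells in which 1 UMI is set to 0. Counts moved with the filter, to 129 and 114 genes at 5% of cells and 8 and 4 at 25%, and with a 1.5-fold threshold, to 262 and 234. Thinned cells, with fewer UMIs per gene, gave 131 and 191. Without cells carrying B, myeloid, dendritic or neutrophil markers (98 triggered and 716 untriggered cells left) they were 96 and 61. A gate of Xcl1 and Ifng gave 8 and 4, of Xcl1 and Nr4a1 30 and 11, and of Ifng and Nr4a1 27 higher genes. At least 2 UMIs of each gate gene left 16 triggered cells and gave 760 and 520. Leaving out the richest 3% of cells of each gene, an alternative added after seeing the data, gave 224 higher genes, since it removes most positive cells of rare genes among untriggered cells. The share of cells meeting the rule was 0.669% after thinning and 0.316% with 2 UMIs of each gene, both also added after seeing the data, against 3.03%.

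Of the 15 highest genes, 9 stayed past 2-fold under the gate of Xcl1 and Ifng, 10 under Xcl1 and Nr4a1, 13 under Ifng and Nr4a1, and 10 without high-output cells, the last also added after seeing the data. The low side held less well under these gates. Of the 10 lowest genes, 1, 1 and 3 stayed past 2-fold under the gates in the same order, and 10 without high-output cells. With comparison cells matched in depth, 15 of the 15 highest and 7 of the 10 lowest stayed past 2-fold. Signs changed for Ccl3 without high-output cells in either group (-0.18, 128 triggered and 1061 untriggered cells), which were chosen in part by Ccl3, for Tnfsf8 under the gate of Ifng and Nr4a1 (-0.33), for Cxcl10 without its richest cells (-0.008), and for Gzmc without the deepest cells (0.15), without cells in which 1 UMI is set to 0 (0.15) and without its richest cells (0.17). List medians changed sign for cytokines and TNF ligands at the 25% filter (-0.048), and for naive and memory genes under the gate of Xcl1 and Nr4a1 (0.64) and with 2 UMIs of each gate gene (0.48). Apart from Gzmc, where 1 untriggered cell decides, the cause of these sign changes was not tested. No paired analysis was possible because each arm is 1 library, and for the same reason no replicate could be left out. Depth limits membership, since 117 of 153 cells had 1 UMI of Nr4a1.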

Other observations

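T cell receptor beta V genes were spread over both groups. Trbv2 was found in 11 of 153 triggered cells (7.19%, 3.64 to 12.5) and 66 of 1073 untriggered cells (6.15%, 4.79 to 7.76). Trbv16 was found in 3.27% and 3.45% in the same order. Trbv29 was found in 5 triggered cells (3.27%, 1.07 to 7.46) and 11 untriggered cells (1.03%, 0.513 to 1.83). No V gene read here was found in more than 7.19% of triggered cells. Among CD4 conventional cells of the anti-PD-1 library, 9 carried all 3 rule genes and 167 none, too few for a comparison.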
